A study of Arabidopsis thaliana with 29 samples.

Results

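Reads from introns give a view of RNA that had not yet been spliced, and in a hybrid the variants they carry show from which parent it was copied. The genes described here are the nuclear genes with at least 10 intronic variant reads in zygotes of both cross directions. Chosen by this rule on deposited read counts were 99 genes of the 14681 with parental values, and of the 7785 nuclear genes with any intronic value. Of the 99, 94 are protein coding, 2 are pseudogenes, 2 are long noncoding RNAs and 1 is another noncoding RNA by RefSeq. The rule used zygote intronic read counts, so those counts and the zygote levels below are descriptions. It did not use the parental percentages or any later stage, and it bears on zygote exonic counts as far as these include the intronic reads.

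The embryos were Arabidopsis thaliana hybrids of 2 accessions, Col-0 and Tsu-1, and every cross is written with the mother first. Embryos of Col-0 × Tsu-1 and of Tsu-1 × Col-0 were sampled at 7 stages, the zygote, the octant, the globular, heart and torpedo stages, and bent and mature embryos, with unfertilized Col-0 ovules beside them. Each group had 2 libraries, except Col-0 × Tsu-1 zygotes with 1, which joined 3 technical libraries. Replicate 1 of globular Col-0 × Tsu-1 embryos joined 2 technical libraries. All embryos were wild type F1 hybrids hand-dissected and, per the labels, washed, and their RNA was amplified before sequencing. Totals ran from 689780 to 60410492 reads per library. The parental values were pooled by the authors over the libraries of a group, so no spread between libraries can be given for them, and every Col-0 × Tsu-1 zygote value rests on 1 library.

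In plants the egg cell hands RNA to the zygote, and the zygote then transcribes both parental genomes. An intron is removed from a transcript soon after it is copied, so a read inside an intron usually comes from a young transcript, whereas exonic reads come from young and old transcripts together. Intronic sequence can also stay in a finished RNA when splicing is skipped, or belong to another transcript that overlaps the gene.

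Zygote intronic reads were spread unevenly over the 99 genes. The introns of 2 of them, AT1G73885 and AT3G48660, the genes with the most zygote intronic variant reads, are shown with that of AT5G19172, whose intronic reads carried nearly 1 accession's variants alone. AT3G48660 and AT5G19172 each have a single annotated intron. The sequences are from RefSeq, build TAIR10.1, Col-0 accession, 5′ to 3′ on the gene's strand, at chr1:27786988-27787082, chr1:27787325-27787416 and chr1:27787583-27787661 (plus strand), chr3:18029864-18030068 (plus strand) and chr5:6448352-6448619 (minus strand). Capitals mark the first and last 2 bases, GT and AG in each, the usual ends of an intron. All of them interrupt coding sequence. Which positions differ in Tsu-1 was not used here.
AT1G73885 intron 1: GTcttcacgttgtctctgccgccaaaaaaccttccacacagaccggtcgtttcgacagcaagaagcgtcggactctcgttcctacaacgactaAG
AT1G73885 intron 2: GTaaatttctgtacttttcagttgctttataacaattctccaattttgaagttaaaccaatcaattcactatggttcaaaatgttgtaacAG
AT1G73885 intron 3: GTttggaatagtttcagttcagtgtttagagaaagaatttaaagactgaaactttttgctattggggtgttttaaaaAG
AT3G48660 intron 1: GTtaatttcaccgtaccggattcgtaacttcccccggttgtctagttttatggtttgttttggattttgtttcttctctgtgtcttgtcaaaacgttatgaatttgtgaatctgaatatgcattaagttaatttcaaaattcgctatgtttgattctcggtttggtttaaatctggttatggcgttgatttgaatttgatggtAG
AT5G19172 intron 1: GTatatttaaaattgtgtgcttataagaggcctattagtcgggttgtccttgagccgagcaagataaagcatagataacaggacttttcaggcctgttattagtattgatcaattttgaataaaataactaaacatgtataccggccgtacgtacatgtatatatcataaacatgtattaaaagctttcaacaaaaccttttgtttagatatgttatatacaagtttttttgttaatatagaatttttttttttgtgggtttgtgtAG

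The 99 genes held 16930.5 of 44273 intronic variant reads (38.2%) in zygotes of Col-0 × Tsu-1 and 16819 of 26172 (64.3%) in zygotes of Tsu-1 × Col-0. The median gene had 38 reads in Col-0 × Tsu-1 (range 10 to 2624) and 34 in Tsu-1 × Col-0 (range 10 to 8823). AT1G73885, annotated as an AT-rich interactive domain protein, alone held 52.5% of the 99 genes' reads in zygotes of Tsu-1 × Col-0. The 5 genes with the most reads were AT1G73885, AT3G48660 (a putative transmembrane protein), UBL5 (ubiquitin-like protein 5), AT2G03010 (of unknown function) and XPO1A (an exportin that carries proteins out of the nucleus). At the edge of the rule, 8 genes had exactly 10 reads in their shallower cross and medians of 97.7% maternal in Col-0 × Tsu-1 and 97.6% in Tsu-1 × Col-0. The 10 genes just outside it, with 9 reads, had medians of 55.2% and 97.3%.

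The genes resembled other genes with intronic values in structure. They had a median of 5 introns and 869 intron bases, against 6 introns and 1022 bases for all 7785 nuclear genes with intronic values. More than 1 transcript was annotated for 48.5% of them, against 50.5% of all. Another annotated gene overlapped 23 of them (23.2%, against 28.5%), on the opposite strand for 18 and on the same strand for 6. Which of a pair of overlapping genes gave a read cannot be told from these values.

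Exonic values existed for 93 of the 99 genes. The columns read as exonic carry no region in their names, and they appear to include the intronic reads. Over all nuclear genes with both values, the intronic count exceeded the exonic one in only 20 of 41767 gene and group pairs and equalled it in 2168. Among the 93 genes, intronic reads summed over the 14 groups were a median of 12.2% of exonic reads. They made up under 10% for 45 genes, 10% to under 50% for 24 and at least 50% for 24. For 7 genes, AT3G48660 among them, both counts were equal in all 14 groups, and so their intronic and exonic percentages are not separate measurements. The comparison of unspliced with total RNA therefore rests mainly on the 45 genes in the lowest class.

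**Figure D1:**
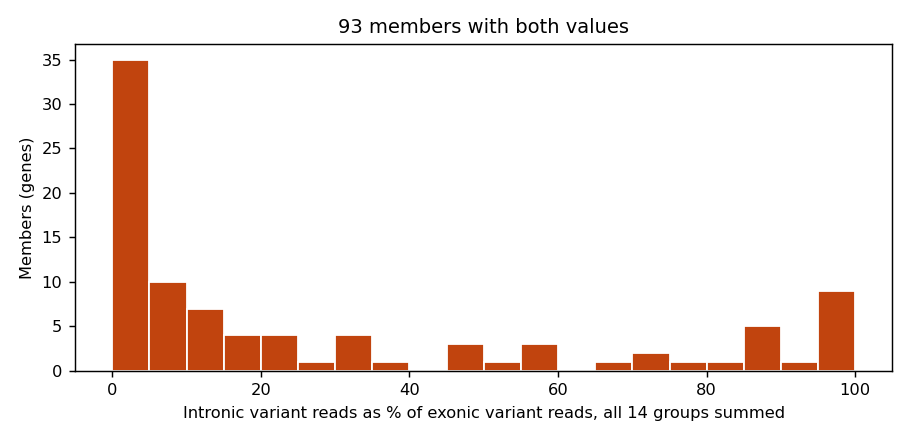
Number of genes (vertical axis) by intronic variant reads as a percentage of exonic variant reads, summed over 14 groups (horizontal axis), for the 93 genes with both values. Most lie near the low end, 45 of them under 10%, and 9 reach at least 95%, where the exonic columns hold almost only the intronic reads.

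Summed over the genes, intronic reads were mostly maternal in zygotes and octant embryos and close to even from the globular stage on. The intronic share, each gene weighted by its reads, was 72.9% maternal in zygotes of Col-0 × Tsu-1 and 88.8% in zygotes of Tsu-1 × Col-0. For octant embryos it was 75.1% and 71.8% and for globular ones 54.7% and 56.1%, Col-0 × Tsu-1 first. It was then 52.0% and 50.6% at heart, 52.5% and 54.9% at torpedo, 52.4% and 48.3% at bent, and 48.2% and 56.6% at mature. Single genes weighed heavily in some of these shares. AT1G73885 held 52.5% of the intronic reads in zygotes of Tsu-1 × Col-0. At mature AT3G48660, whose counts are equal in both regions, held most intronic reads in both crosses. The exonic share, over the 93 genes with exonic values, was 82.1% and 85.3% in zygotes and 86.0% and 77.6% in octant embryos. It was 61.1% and 57.6% in globular embryos, and between 48.3% and 55.3% at the 4 later stages. Over those 93 genes alone the zygote intronic share was 72.2% in Col-0 × Tsu-1 and 89.1% in Tsu-1 × Col-0.

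Read by read, the intronic share was 9.23 points below the exonic one in zygotes of Col-0 × Tsu-1 (95% interval of the difference 8.55 to 9.92 points below) and 3.46 points above it in zygotes of Tsu-1 × Col-0 (2.97 to 3.94 points above). The sign therefore differed between the crosses. The intronic share here covered all 99 genes, and the exonic one the 93 with exonic values. These intervals, and the Wilson intervals given for single genes, cover counting error only, and reads of amplified RNA are not independent molecules. The intronic share was then taken over the same 93 genes, and each gene's exonic percentage was given the weight of its intronic reads. With weights and genes changed together, the gap shrank to −2.18 points in zygotes of Col-0 × Tsu-1 and 1.74 points in zygotes of Tsu-1 × Col-0. With these equal weights the gap lay between −2.18 and 2.38 points in all 14 groups, over genes many of which hold the same reads in both regions. For the 45 genes in which intronic reads were under 10% of exonic reads, the same equal weights gave 78.4% intronic against 79.6% exonic in zygotes of Col-0 × Tsu-1, and 86.3% against 87.3% in zygotes of Tsu-1 × Col-0. At octant those genes gave 82.5% intronic against 83.1% exonic in Col-0 × Tsu-1 (1373 intronic reads). In Tsu-1 × Col-0 they gave 64.7% against 75.8% (1182 intronic reads). At globular they gave 63.4% intronic against 59.7% exonic in Col-0 × Tsu-1 (3017 intronic reads). In Tsu-1 × Col-0 they gave 50.6% against 61.9% (668.5 intronic reads). In these 45 genes the gap thus ran wider than over the 93. In Tsu-1 × Col-0 it ran from −11.37 points at globular to 7.87 points at bent (460.5 intronic reads). The Col-0 × Tsu-1 groups lay between −3.47 and 3.72 points. With so few reads, 1 gene can carry much of such a gap, and the weight of single genes was not tested.

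**Figure D2:**
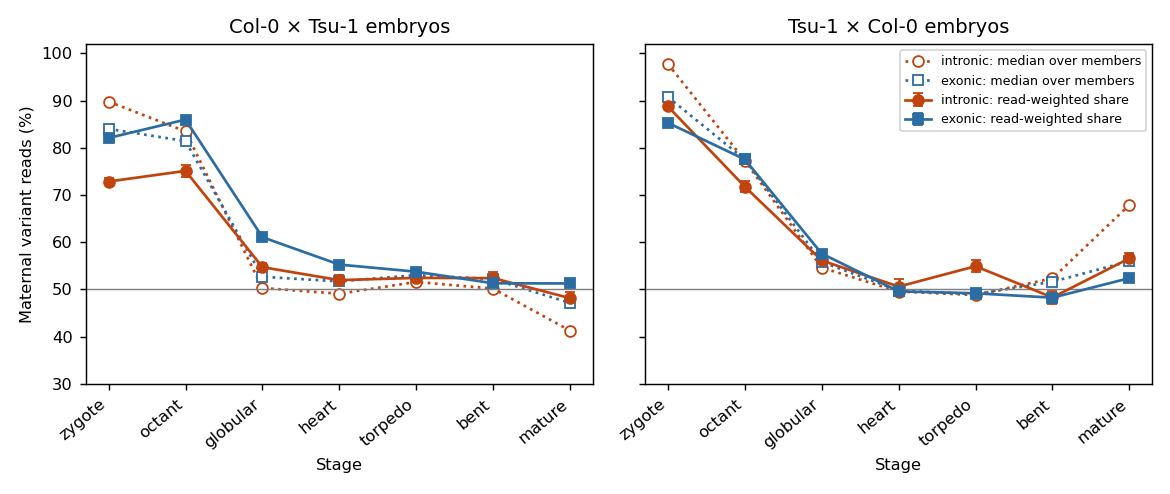
Maternal share of variant reads in percent (vertical axis, starting at 30) by stage (horizontal axis) in Col-0 × Tsu-1 embryos (left) and Tsu-1 × Col-0 embryos (right). Filled symbols on solid lines are read-weighted shares with Wilson 95% intervals, over the 99 genes for introns and the 93 with exonic values for exons. Open symbols on dotted lines are medians over genes with at least 10 reads in both regions and both crosses. Both measures are well above 50% at zygote and octant.

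Gene by gene, the median zygote percentage was higher in introns than in exons within each cross, and nearly the same once a gene was averaged over both crosses. Within crosses the zygote medians were 89.8% in introns and 84.0% in exons of Col-0 × Tsu-1, and 97.8% and 90.8% in Tsu-1 × Col-0 (93 genes). In the 45 genes with under 10% intronic reads they were 94.9% and 86.9% in Col-0 × Tsu-1, and 97.9% and 86.5% in Tsu-1 × Col-0. Weighted by intronic reads, the same 45 genes were slightly less maternal in introns, by −1.25 points in Col-0 × Tsu-1 and −1.05 points in Tsu-1 × Col-0. Which region of these genes is the more maternal thus depended on the measure. The median of the gene-wise differences was 0.13 and 0.37 points over the 93 genes, since genes differed both ways. Averaged over both crosses, the median gene was 82.7% maternal in introns and 83.4% in exons at zygote (93 genes). The medians were 75.8% and 75.5% at octant (49 genes with at least 10 reads in both regions and crosses), 51.5% and 53.5% at globular (41 genes) and 50.1% and 52.2% at heart (39 genes). They were 51.8% and 51.1% at torpedo (41 genes), 53.4% and 51.2% at bent (32 genes) and 53.2% and 53.3% at mature (12 genes). Other nuclear genes with enough reads had medians of 69.5% in introns and 71.3% in exons at octant (133 genes), and 50.9% and 52.6% at globular (113 genes).

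Single genes differed both ways in zygotes. Introns were more maternal than exons in both crosses for 28 genes and less maternal in both for 17. For 27 genes introns held more of the Col-0 variant in both crosses and for 21 more of the Tsu-1 variant. Both crosses lay within 5 points for 31 genes. The median size of the gap was 6.94 points in Col-0 × Tsu-1 and 3.96 points in Tsu-1 × Col-0. The class with under 10% intronic reads had 12.2 and 8.29 points, and the class with at least 50% had 0.28 and 0.20 points, where most reads are shared. Across genes, intronic and exonic percentages had a Spearman correlation of 0.69 in each cross (93 genes, which share libraries and in part reads). It was 0.40 in Col-0 × Tsu-1 and 0.67 in Tsu-1 × Col-0 for the 45 genes with under 10% intronic reads, and 0.94 and 0.99 for the 24 with at least 50%.

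Introns were also more often near an extreme. Of the 99 genes, 31 were at least 95% maternal by introns in both crosses, against 12 of 93 by exons. In 34 of 99 genes, introns were over 50% maternal in 1 cross and at or under 50% in the other, against 15 of 93 genes by exons. Intronic counts were lower than exonic ones. Counting error scatters a fraction from few reads more widely, towards an extreme or across 50%. How much of the excess of such genes by introns came from this was not tested. How near a deposited intronic fraction came to fully maternal also depended on its count. The highest value was 98.5% among all values from 10 reads and 99.9% among those from at least 100 reads, over all nuclear genes and groups.

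**Figure D3:**
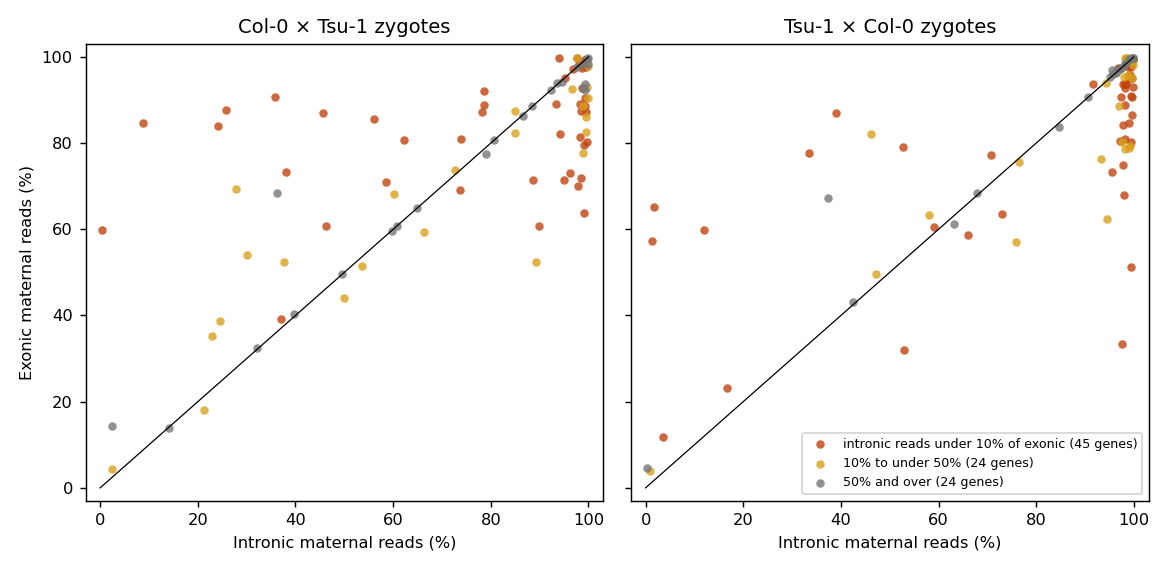
Intronic (horizontal axis) against exonic (vertical axis) maternal reads in percent in Col-0 × Tsu-1 zygotes (left) and zygotes of Tsu-1 × Col-0 (right), 1 point for each of 93 genes, coloured by the share of intronic in exonic reads. The 24 genes with at least 50% lie near the line of equal values with few exceptions, and the 45 genes under 10% spread away from it, many towards fully maternal introns.

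Next, genes were counted whose intronic and exonic 95% Wilson intervals were apart in both crosses in the same sense. Only genes of the rule have enough zygote reads for this, so the background is the genes themselves. Of 93 genes at zygote, 2 were more maternal in introns (2.15%), 1 was more paternal (1.08%), 2 held more Col-0 (2.15%) and 6 more Tsu-1 (6.45%). More genes were thus apart by accession (8) than by parent (3). Of these 11, AT1G73885, XPO1A, UBL5 and BIP1 fall under the naming rule, and the others were chosen after their values were seen.

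BIP1, a chaperone of the endoplasmic reticulum, had more maternal introns. They were 99.6% maternal in zygotes of Col-0 × Tsu-1 (62 reads, interval from 93.5%) and 99.5% in zygotes of Tsu-1 × Col-0 (56 reads, interval from 92.8%). Its exons were 80.2% (2607 reads, interval to 81.7%) and 86.5% maternal (2685 reads, interval to 87.8%). RCE1, an enzyme that attaches the ubiquitin-like protein RUB to its targets, was 98.4% and 99.7% maternal in introns (15 and 79 reads) and 71.9% and 90.8% in exons. Both genes thus kept paternal variants in exonic reads while almost none were seen in introns. BIP1 had at most 8 intronic reads per group at later stages, so this could not be followed.

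UBL5, whose yeast counterpart takes part in splicing, was the 1 gene with more paternal introns. In Col-0 × Tsu-1 zygotes its introns were 73.8% maternal (1770 reads, interval 71.7% to 75.8%) and its exons 81.0% (80.0% to 82.0%). In zygotes of Tsu-1 × Col-0 they were 91.6% (971 reads, 89.7% to 93.2%) and 93.7% (93.4% to 93.9%). At octant the introns were 76.7% maternal in Col-0 × Tsu-1 (382 reads) and 48.1% in Tsu-1 × Col-0 (255 reads), with exons at 82.6% and 85.5%. Of the 49 genes measured at octant, UBL5 was the 1 with intervals apart towards more paternal introns in both crosses (against 2.2% of all 182 nuclear genes measured there). At globular the sense changed, with introns at 71.0% and 46.6% maternal and exons at 63.9% and 72.2%, so that introns held more Col-0. UBL5 lies on chromosome 5, chr5:16911579-16913991, minus strand in TAIR10.1, has 1 intron of 988 bases, and overlaps AT5G42290 on the opposite strand.

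XPO1A introns leaned to Col-0 whichever parent gave it. They were 88.6% maternal in zygotes of Col-0 × Tsu-1 (814 reads) and 33.5% in zygotes of Tsu-1 × Col-0 (196 reads), while exons were 71.4% and 77.8% maternal. The same held at heart, with introns at 70.7% and 45.1% and exons at 43.7% and 60.7%. At octant its intervals were not apart in both crosses, with introns at 63.3% and 55.9%. DAR4, an immune receptor of the DA1-related family, had introns at 99.2% and 11.9% (29 and 10 reads) and exons at 79.6% and 59.9%.

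The 6 genes with more Tsu-1 in zygote introns were AT1G73885, EXPB4 (a beta-expansin, which loosens cell walls), RPL18AA (annotated as a protein of the large ribosomal subunit), AT5G02960 (a ribosomal protein of the S12/S23 family), CPN20 (a chloroplast chaperonin) and AT5G47570 (annotated as a subunit of mitochondrial NADH dehydrogenase). In AT1G73885 the introns printed above were 29.97% maternal in zygotes of Col-0 × Tsu-1 (1375 reads) and 98.0% in zygotes of Tsu-1 × Col-0 (8823 reads), and the exons were 54.0% and 95.4%. AT5G47570 was the most divided, with introns at 0.47% and 99.8% (51 and 114 reads) and exons at 59.8% and 93.1%. RPL18AA introns were 35.7% and 99.5% maternal (17 and 53 reads), against exons at 90.6% and 51.3%, so that exons were mostly Col-0 with the Col-0 mother and near even with the Tsu-1 mother. EXPB4 introns held mostly Tsu-1 at 3 stages. They were 27.8% and 94.4% maternal at zygote (40 and 505 reads), 6.56% and 97.8% at octant (93 and 508 reads) and 3.9% and 97.2% at globular (30 and 136 reads). Its exons were 69.3% and 62.4%, 66.6% and 55.9%, and 87.8% and 46.5% at those stages, over 50% maternal in both crosses at zygote and octant and mostly Col-0 in both at globular.

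**Figure D4:**
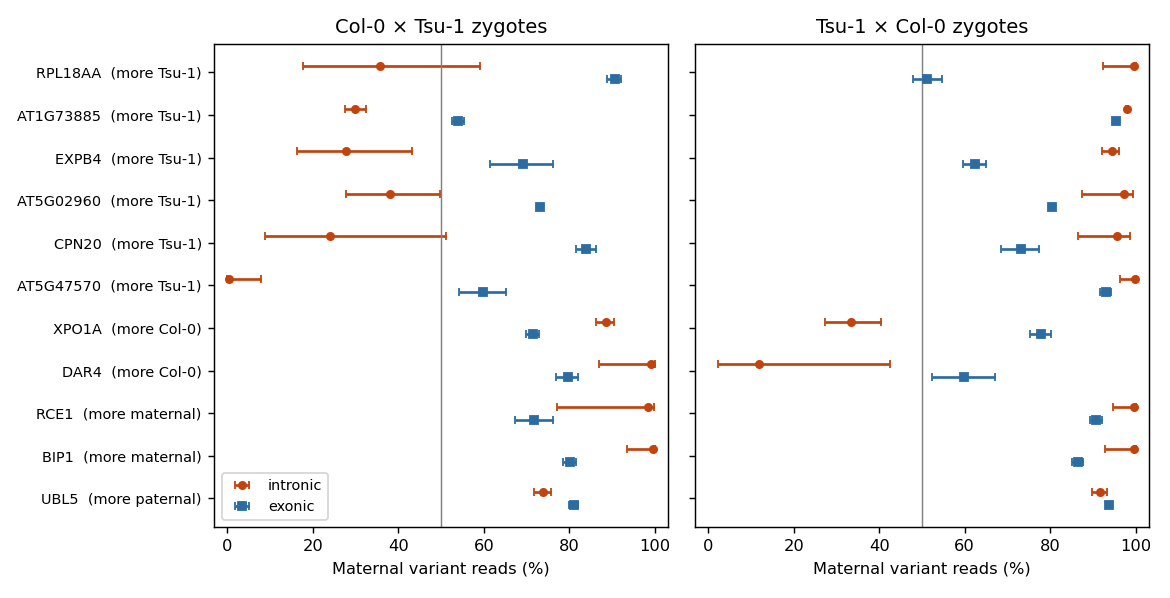
Maternal variant reads in percent (horizontal axis) in introns and exons of the 11 genes whose intervals were apart in both crosses, in Col-0 × Tsu-1 zygotes (left) and zygotes of Tsu-1 × Col-0 (right), with Wilson 95% intervals for counting error. Genes whose introns lean to Tsu-1 lie left of their exons in the left panel and right of them in the right panel, as AT1G73885 does at 29.97% and 98.0%.

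At later stages few genes stood apart, and mostly by accession. At octant AT1G11740 (an ankyrin repeat protein) held more Col-0 in introns (1 of 49, against 3.3% of all measured genes) and EXPB4 more Tsu-1 (1 of 49, against 3.85%). At globular UBL5 and IAA9, a repressor of auxin-response genes, held more Col-0 (2 of 41, against 8.44%) and EXPB4 more Tsu-1 (1 of 41, against 3.9%). At heart XPO1A and IAA9 held more Col-0 (2 of 39, against 4.78%) and RPL18AA and AT1G73885 more Tsu-1 (2 of 39, against 3.48%). At torpedo ABCB19, an auxin transporter, held more Tsu-1 (1 of 41, against 2.98%). At bent AT1G35516 held more Col-0 (1 of 32, against 4.09%), RPL18AA more Tsu-1 (1 of 32, against 5.45%), and AT5G02960 was more maternal (1 of 32, against 0.909%). At mature none of 12 genes was apart towards the mother, the father, Col-0 or Tsu-1 (against 0.0%, 0.0%, 2.59% and 5.17%). With 1 or 2 genes each, these shares are near those of all genes with enough reads. IAA9 shows how 1 gene changed over the stages. Its introns were 99.8% and 99.6% maternal at zygote (747 and 65 reads), 87.8% and 77.3% at octant (53 and 40 reads), 66.3% and 33.2% at globular (159 and 28 reads) and 65.9% and 37.6% at heart (73 and 29 reads). Its exons were 90.4% and 94.99%, 83.0% and 82.0%, 43.0% and 69.6%, and 50.2% and 62.8% at those stages.

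By rank across genes, a leaning of introns to 1 accession at zygote was only loosely kept. The share of the Col-0 variant in introns at zygote had Spearman correlations across genes of 0.17 with octant (49 genes), 0.41 with globular (41), 0.39 with heart (39), 0.22 with torpedo (41), 0.25 with bent (32) and 0.33 with mature (12). For exons these were 0.52, 0.59, 0.52, 0.52, 0.50 and 0.29. Intronic counts were lower than exonic ones, and counting error lowers a rank correlation. In some genes the Col-0 share of introns and exons differed by at least 10 points at zygote. The sign of that difference was the same at octant for 9 of 14 such genes and at globular for 10 of 14. It was the same for 10 of 15 at heart, 13 of 17 at torpedo, 8 of 11 at bent and 3 of 3 at mature.

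Genes were then called maternal where the authors' deposited table gave an adjusted p under 0.05 with the mother's variant higher in both crosses. By introns, 28 of the 99 genes were called maternal at zygote (28.3%), 1 paternal (1.01%), 1 Col-0 (1.01%) and 3 Tsu-1 (3.03%). No other gene has the reads for an intronic call, so the genes are again their own background. By exons, 43 of the 93 genes were called maternal (46.2%), against 41.1% of all 7547 nuclear genes with enough reads, 1 paternal (against 0.225%), 3 Col-0 (against 1.96%) and 1 Tsu-1 (against 1.11%). Introns and exons gave the same maternal call for 26 genes. Of the 28, RCE1 and AT4G13615 had no exonic call, and 17 genes were maternal by exons alone.

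The authors' intronic p-values were larger than the exonic ones on nearly the same reads. For 34 gene and cross values the zygote intronic count was at least 95% of the exonic count. In the authors' deposited table the intronic adjusted p was the larger in 32 of these and the smaller in 1, and it was under 0.05 in 18, against 25 for exons. AT2G03010 is an example. In Col-0 × Tsu-1 zygotes it was 88.5% maternal by 2028 intronic reads and 88.6% by 2048 exonic reads, with adjusted p = 0.199 and 0.00255 in the authors' deposited table. Fewer intronic than exonic calls therefore cannot be read as less maternal introns.

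The 28 genes maternal by introns spanned many roles. They included IAA9, BIP1, RCE1, FER3 (a ferritin, which stores iron), VPS34 (a lipid kinase of membrane trafficking), BAM1 (beta-amylase 1, which breaks down starch) and VSP1 (vegetative storage protein 1). Their introns were between 94.6% and 99.9% maternal in zygotes of Col-0 × Tsu-1 (median 99.3%) and between 93.4% and 99.8% in zygotes of Tsu-1 × Col-0 (median 98.9%). Their exons had medians of 92.9% and 95.9%, with lows of 63.8% and 76.4%.

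At octant the maternal medians of these genes were lower. The 28 genes were chosen by their zygote values, so lower values at other stages are in part built into the choice. Fewer intronic reads at octant can also make a call harder. The 99 genes had 4761 in Col-0 × Tsu-1 and 5234 in Tsu-1 × Col-0, against 16930.5 and 16819 at zygote. Of the 28 genes, 15 had at least 10 intronic reads in both crosses at octant, with medians of 87.8% and 87.5% maternal, and 3 of them were called maternal again. The exonic medians of the 28 were 87.2% and 81.8%. At globular the 8 genes still measured had intronic medians of 66.8% and 65.0%, and the exonic medians of 25 genes were 63.8% and 63.2%. At heart 6 genes had intronic medians of 62.9% and 45.0%.

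In all, 5 of 51 genes were called maternal by introns at octant, against 5.82% of all 189 measured genes, and EXPB4 was called Tsu-1 (1 of 51, against 1.59%). The 5 were BAN, DFR, FMO GS-OX2 (a flavin monooxygenase that modifies glucosinolates), GILT (annotated as a lysosomal thiol reductase) and AT5G13660. By exons 35 of 88 were called maternal at octant, against 26.9%. At globular no gene of 43 was called maternal by introns (0.0% of all 159 measured genes). By exons BAN, DFR and GILT were called maternal at globular (3 of 84, against 1.9%) and at heart (3 of 77, against 0.219%).

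BAN and DFR are enzymes of the flavonoid pathway, BAN making the precursors of seed coat tannins and DFR acting upstream of it, and both are known as seed coat genes. BAN introns were 99.3% maternal in zygotes of Col-0 × Tsu-1 (33 reads) and 99.8% in zygotes of Tsu-1 × Col-0 (132 reads), and 99.8% and 99.6% at octant (117 and 53 reads). Its exons were at 99.2% and 99.2% at zygote, and at 99.9% and 93.1% at globular. DFR introns were 97.7% and 98.5% at zygote (10 and 16 reads) and 99.4% and 98.8% at octant (36 and 16 reads). The seed coat is maternal tissue that carries no paternal variant. Its 21 listed genes, BAN and DFR included, summed to 6700 to 14600 CPM (reads scaled to the size of the library) in zygote libraries, 3650 to 5610 at octant, 909 to 1810 at globular and 218 to 472 at heart, against 461 to 548 in ovules. At later stages they summed to 324 to 579 CPM at torpedo, 368 to 1280 at bent and 116 to 161 at mature. None of the 21 was at 0 in all libraries of a stage up to torpedo, and 1 was at bent and at mature. Embryo patterning genes, 29 in the list, summed to 791 to 1930 CPM at zygote and 1680 to 2650 at octant. By its median the seed coat sum came down at each step from zygote to heart, and the maternal share of introns was lower at globular and heart than at zygote and octant. The sum was higher again at torpedo and bent, with medians of 479 and 974 CPM against 263 CPM at heart, while the intronic share stayed between 48.3% and 54.9% maternal at those 2 stages. Its part in the maternal values of introns and exons was not tested. No gene of the lists for endosperm, embryo patterning, seed storage or splicing factors was among the 99. Those lists held only 5, 14 and 2 genes with intronic values, and 11 and 3 in the 2 lists of splicing factors. Since 99 of 7785 genes with intronic values met the rule, this absence says little. The seed coat list held 10 such genes, of which BAN and DFR met it.

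ARF18, an auxin response factor, was the 1 paternal gene. Its introns were 2.46% maternal in zygotes of Col-0 × Tsu-1 (50 reads) and 0.85% in zygotes of Tsu-1 × Col-0 (29 reads), with adjusted p = 0.0133 and 6.76e-04 in the authors' deposited table. Its exonic values, 4.34% and 3.91%, came from 54 and 30 reads and so almost from the same ones. By octant, exons stood at 49.7% and 54.0% (22 and 26 reads), with 7 and 6 intronic reads. Its total reads were 289.0 CPM in the Col-0 × Tsu-1 zygote library and 284 and 106 CPM in the Tsu-1 × Col-0 zygote libraries, with 82.7 and 42.9 CPM in ovules.

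The calls by accession at zygote were AT2G30740 (a protein kinase) for Col-0 and AT1G65150 (a TRAF-like protein), AT5G47570 and AT3G30200 (a transposase-related gene) for Tsu-1. AT2G30740 introns were 99.8% maternal in zygotes of Col-0 × Tsu-1 (128 reads) and 0.23% in zygotes of Tsu-1 × Col-0 (114 reads). AT3G30200 introns showed the mirror image, at 0.54% and 98.6% (45 and 18 reads). AT1G65150 introns were 2.51% and 96.3% maternal at zygote, 16.8% and 99.7% at octant, 5.06% and 92.0% at globular and 7.5% and 97.6% at heart. In the introns of AT1G65150 1 accession thus led through these stages. AT5G19172, a cysteine-rich protein whose intron is printed above, had introns at 97.9% and 1.33% maternal at zygote (11 and 19 reads) and 98.5% and 2.47% at octant (15 and 8 reads). Its exons were 70.1% and 57.4% at zygote. The call was not made for AT5G19172.

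For 8 genes at least 10 reads in both regions and both crosses were present at all 7 stages, and the 5 of them with most intronic reads were followed. AT1G73885 introns were 64.2% and 87.3% maternal at octant, 39.9% and 84.1% at globular, 28.3% and 79.4% at heart, 46.2% and 73.4% at torpedo, 45.2% and 77.4% at bent and 39.5% and 75.9% at mature. From globular to mature the Tsu-1 variant was thus above 50% in introns in both crosses. AT4G02845, a noncoding RNA, did the same from globular on, with introns at 39.3% and 72.7% at globular, 16.2% and 74.5% at heart, 22.2% and 86.2% at torpedo, 30.2% and 79.6% at bent and 36.7% and 73.5% at mature. AT3G48660 leaned to Col-0 instead. It was 60.9% and 42.5% maternal at zygote, 60.2% and 43.5% at octant, 51.9% and 42.7% at globular, 57.3% and 41.1% at heart, 63.6% and 39.9% at torpedo and 59.5% and 40.2% at bent. At mature it stood at 47.6% (3257 reads) and 59.1% (5484 reads), on the side of Tsu-1.

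AT1G35516, annotated as a myb-like transcription factor, was maternal at first and later leaned to Col-0. Its introns were 84.9% and 98.6% maternal at zygote, 83.5% and 76.7% at octant, 66.7% and 45.1% at globular and 57.3% and 34.6% at bent (2518 and 1106 reads). AT1G20100, annotated as a DNA ligase-like protein, was nearer to even, with introns at 49.6% and 67.8% in zygotes, 64.7% and 69.5% in octant and 43.6% and 53.6% in globular embryos. AT2G03010 fell short of the read limit only at mature. It was 88.5% and 99.7% maternal in introns at zygote, 82.4% and 76.5% at octant, 52.8% and 48.8% at globular and 48.3% and 44.0% at heart.

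Total reads were compared between globular and octant embryos, which the rule did not use. Of the 99 genes, 97 had total counts and 95 passed the filter on low counts. By edgeR's quasi-likelihood test at an adjusted p under 0.05, 13 of the 95 were higher at globular (13 of 95, against 16.9% of 19051 genes tested) and 22 were lower (against 20.2%). The median log2 fold change was −0.08 for the 95 genes and 0.03 for all genes tested. Leaving out 1 octant library left 7 of the 95 higher when it was Col-0 × Tsu-1 replicate 1, Col-0 × Tsu-1 replicate 2 or Tsu-1 × Col-0 replicate 1. The share of all genes called higher then fell as well, to 10%, 9.96% and 13.4%. A test of whether the change differed between the crosses called 0 of the 95 genes by edgeR, and 309 of 19051 genes overall. At an unadjusted p under 0.05 it called 16 of the 95 (16.8%), against 15.4% of all genes tested. In bulk RNA, fewer cells of a type and less RNA per cell cannot be told apart.

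The largest called falls were in AT4G23670, VSP1, AT2G47895 and BAN. AT4G23670 (a polyketide cyclase and lipid transport family protein) had 1.39 and 1.67 CPM in globular Col-0 × Tsu-1 libraries and 1.12 and 1.13 in globular Tsu-1 × Col-0 libraries, against 21.8, 12.3, 9.21 and 9.29 CPM in the octant libraries in the same order. Its log2 fold change was −3.33 ± 0.30 (SE, edgeR adjusted p = 4.66e-05). The groups did not overlap. VSP1 had 69.8, 32.6, 30.6 and 8.5 CPM at globular, against 898, 824, 129 and 96.7 CPM at octant, a log2 fold change of −3.27 ± 0.48 (SE, edgeR adjusted p = 4.40e-04). At octant the first 2 of these libraries, of Col-0 × Tsu-1, lay far above the other 2, and every globular library was below every octant library.

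AT2G47895, a long noncoding RNA that overlaps AT2G47890 on its own strand and AT2G47900 on the other, had 102.2, 93.5, 139 and 51.5 CPM at globular, against 1135, 907, 678 and 757 CPM at octant. Its log2 fold change was −3.13 ± 0.33 (SE, edgeR adjusted p = 7.60e-05). BAN had 23.7, 36.4, 86.5 and 77.0 CPM at globular, against 450, 420, 398 and 472 CPM at octant, and changed by −3.12 ± 0.35 (SE, edgeR adjusted p = 1.09e-04). DFR changed by −2.16 ± 0.30 (SE, edgeR adjusted p = 3.33e-04), with 33.4 to 61.1 CPM at globular, against 159 to 282 CPM at octant. The summed seed coat genes fell over the same stages, as given above, and their part in these falls was not tested.

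The largest rises included genes with no exonic parental value. AT3G30200 had 1.43, 1.88, 1.4 and 1.13 CPM at globular, against 0.43, 0.40, 0.29 and 0.17 CPM at octant, a log2 fold change of 2.16 ± 0.39 (SE, edgeR adjusted p = 0.00155). AT5G58110, a chaperone-binding protein, had 114, 101.7, 33.0 and 50.4 CPM at globular, against 21.6, 24.3, 16.2 and 21.5 CPM at octant, a log2 fold change of 1.70 ± 0.28 (SE, edgeR adjusted p = 8.51e-04). AT3G48660 rose by 1.69 ± 0.38 (SE, edgeR adjusted p = 0.00549), with 317, 113, 54.2 and 81.6 CPM at globular, against 36.0, 43.1, 36.9 and 35.2 CPM at octant. NRPB6B, a subunit of RNA polymerases, had 185, 110, 45.9 and 62.9 CPM at globular, against 40.5, 41.0, 33.6 and 36.2 CPM at octant, a log2 fold change of 1.26 ± 0.29 (SE, edgeR adjusted p = 0.00593). In each of these 4 genes every globular library was above every octant library, which their choice by large changes favours.

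**Figure D5:**
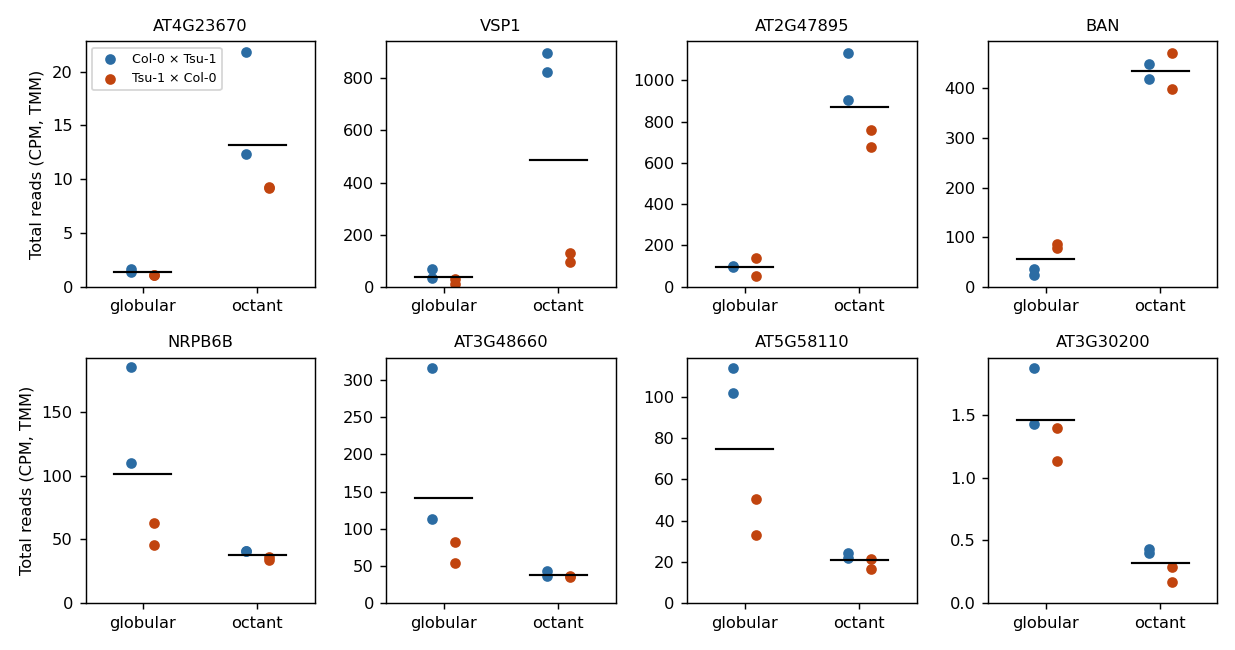
Total reads in CPM, reads scaled to library size with TMM factors (vertical axes from 0, a scale for each gene) in globular and octant libraries (horizontal axis) of the 8 genes with the largest called changes, with bars at the mean of 4 libraries. Each point is a library, coloured by cross. In all 8 panels the stages do not overlap, as for BAN with 23.7 to 86.5 CPM at globular against 398 to 472 CPM at octant. The genes were picked for large changes, which favours such separation, and its share among all genes tested was not computed.

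The zygote genes with the most intronic reads also varied widely in total reads. UBL5 had 316 CPM in the Col-0 × Tsu-1 zygote library and 4174 and 1946 CPM in the Tsu-1 × Col-0 zygote libraries, and AT1G73885 had 82.5 CPM and 741 and 435 CPM in the same libraries. At octant UBL5 had 193 to 294 CPM and AT1G73885 24.1 to 51.3 CPM. Both genes were therefore higher in zygotes of the Tsu-1 mother by level, with 1 library of the Col-0 mother and no test. Of the 97 genes with total counts, 43 had their highest mean at zygote, 15 at mature, 12 at octant, 11 in ovules and 16 at the 4 stages between, a pattern that the rule on zygote reads favours. The zygote mean joins 1 Col-0 × Tsu-1 library with 2 Tsu-1 × Col-0 libraries. Peak stages were not counted over all genes, so these counts have no background.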

How the data were processed

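Parental values and total reads were read from tables deposited for 29 libraries. For each stage and cross the authors deposited, pooled over libraries and separately for introns, the maternal fraction per gene, an adjusted p-value and an expected count of variant reads. Total reads were deposited by the authors in expected counts per library (8.68% to 22.4% of values not whole) and were rounded. STAR 2.7.0d, featureCounts 1.6.0, edgeR and the build TAIR10 are named without a role in the submitters' processing notes. The test behind the adjusted p-values, the strand of counting and the number of embryos per library are not given in the sources used here.

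The 99 genes and all gene lists were chosen with earlier results of these data known. Calls needed at least 10 variant reads and an adjusted p under 0.05 in both crosses. Counting errors are Wilson 95% intervals. The interval of a difference of shares joins both Wilson intervals as if introns and exons shared no reads. Globular and octant libraries were compared with edgeR 4.0.16 (quasi-likelihood, two-sided, TMM, filterByExpr, cross as covariate, Benjamini-Hochberg over 19051 genes), with DESeq2 1.42.0 as an alternative. On simulated counts 92.5% of 200 genes changed 4-fold were recovered (18863 genes, 9 false calls). Between the real stages 16.9% of genes were called higher and 20.2% lower, by changes of many sizes. The simulated rates therefore need not hold for the real comparison. Gene structure and sequence came from RefSeq TAIR10.1, in which all 99 IDs matched.

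Named genes have the most zygote intronic reads (5), the largest intronic and exonic gap at 20 or more reads, reads at all 7 stages (5 with most), a place in a list, the largest called change in total reads (4 each way) or a paternal intronic call. Genes outside this rule were chosen after their values were seen.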

Additional observations from a re-analysis of the deposited data

Results flagged for a closer look

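The level of AT4G02845, a noncoding RNA, at globular was singled out because 1 of 4 libraries lay far from the other 3 by Dixon's test at 95%. Col-0 × Tsu-1 replicate 1 had 1.718 log2 CPM (3.23 CPM), against 6.67 CPM in Col-0 × Tsu-1 replicate 2 and 7.69 and 6.8 CPM in the Tsu-1 × Col-0 libraries. This was 1 of 36 gene and stage groups of 4 libraries tested, and chance gives about 1 in 20.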

How the results depend on the processing

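The gap between intronic and exonic shares depended on how genes were weighted and on which genes were included. In points of intronic minus exonic maternal share, Col-0 × Tsu-1 zygotes gave −3.88 with at least 20 zygote reads, −2.10 as an unweighted mean, −4.64 without the 5 genes with most reads, −13.89 without genes overlapping another, and −2.18 with exonic percentages weighted by intronic reads (chosen after seeing the data). Tsu-1 × Col-0 zygotes gave 5.40, 1.74, 0.27, 1.37 and 1.74 under the same settings. Octant Col-0 × Tsu-1 gave −0.057 unweighted, −6.34 without the 5 genes, −16.12 without overlapping genes and −1.45 with intronic weights. Octant Tsu-1 × Col-0 gave −2.04, −1.43 and −10.53, and turned to 1.86 with intronic weights. Globular Col-0 × Tsu-1 gave −4.17, −7.18 and −13.38, and turned to 0.47 with intronic weights. Globular Tsu-1 × Col-0, whose interval included 0, gave 0.63 without the 5 genes and −4.10 without overlapping genes. Mature Tsu-1 × Col-0 turned to −3.62 without the 5 genes. The cause was not tested in any of these.

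With 99% intervals 1 gene was apart by parent at zygote and 0 at octant, and 1 by accession at octant. With at least 20 reads 5 were apart by accession at zygote, and 4 at octant after intronic reads were subtracted from exonic ones (chosen after seeing the data). At an adjusted p under 0.01, 16 genes were maternal and 0 paternal by zygote introns.

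At globular 8 of the 95 genes were higher and 19 lower with a replicate block, against 12.3% and 17.3% of all genes tested. Replicate numbers did not pair libraries (correlation of replicate differences between stages −0.16 in Col-0 × Tsu-1 and −0.02 in Tsu-1 × Col-0). The crossed pairing, chosen after seeing the data, gave 11 and 20, against 13.6% and 18.6%. Leaving out 1 library gave 7 to 15 higher and 17 to 21 lower. Over all genes tested these fits called 9.96% to 17.9% higher and 15.2% to 21.5% lower. DESeq2 gave 13 higher and 23 lower, against 15.6% and 17.5% of all genes. DESeq2 size factors and no filter stayed within 1.5 times. UBL5 (log2 fold change −0.65) passed the threshold with all 8 libraries (adjusted p = 0.0426, edgeR) and lost it under 10 alternatives. AT2G03010 passed it only without globular Col-0 × Tsu-1 replicate 2. The other named genes with a call kept it and their direction. Of those without one, 4 changed sign on leaving out 1 library, AT1G73885 (log2 fold change 0.14, range −0.034 to 0.33, also −0.017), XPO1A (0.15, −0.32 to 0.48), AT1G35516 (−0.11, −0.23 to 0.029, also 0.0018) and AT4G02845 (−0.14, −0.42 to 0.052). XPO1A also did with the replicate block, to −0.012 in either pairing. Parental values are pooled, and counting error is the only error that could be given. Median zygote intronic depth was 38 and 34 reads per gene, and intervals are wide at 10 reads.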
